A study of Mus musculus with 12 samples.

Results

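The genes described here are 49 receptors for interleukins and chemokines, read in mouse melanoma tumours on 12 Affymetrix arrays. A gene was a member when the RefSeq accession in its probe set's name led to a mouse symbol of the form Il, digits and r, or to one starting with Ccr, Cxcr or Ackr and a digit. The rule left out 8 genes of that form (Il1rn, Il1r2, Il3ra, Il12rb1, Il17rc, Il17rd, Ccr2 and Cxcr2). Its wording used no measured difference, but the members were chosen with earlier results of these data known. The rule took 33 interleukin receptors and 16 chemokine receptors out of 909 named genes, which lay on 963 of the 1246 probe sets, and the brightest probe set stood for each gene. The 49 genes had 57 probe sets, and 11 of the 49 brightest ones carry a suffix for probes shared between transcripts or similar sequences.

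The study asks how galectin-3, a lectin that binds sugar chains on cell surfaces, acts in a melanoma when it comes from the tumour cells or from the host. Tumours grew from the line Tm1N3, labelled as expressing galectin-3, or from Tm1G3, labelled as silenced for it, in wild-type mice or in mice without the galectin-3 gene (Gal3 -/-, called knockout hosts here), with 3 arrays in each of the 4 groups. The series' design text speaks of a silenced line and of a plasmid that codes for galectin-3 and does not say which of these lines carries the plasmid. The sources used here do not give the age or sex of the hosts, the age of the tumours or the number of clones behind each line. Each title has a replicate number of 1, 2 or 3 and a tag number, but nothing says that replicates came from separate animals or days, so p-values measure the spread between these samples, which may be technical.

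Interleukins and chemokines are small secreted proteins that pass signals between immune, stromal and tumour cells. Most interleukin receptors are built from chains: a private chain recognises the ligand and a shared chain, such as the common gamma chain Il2rg, carries the signal to Janus kinases and STAT factors, and receptors of the interleukin-1 family signal through adaptor proteins of Toll-like receptors. Chemokine receptors cross the membrane with several helices, couple to G proteins and guide cells along gradients, and atypical receptors such as Ackr4 take up chemokines without that signal. In a tumour most of them are carried by leukocytes, some also by fibroblasts, vessels or the melanoma cells.

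All levels are log2 values summarised per probe set by RMA, so a difference of 1 is a 2-fold difference. The arrays ran from 2.14 to 13.9, had medians between 5.51 and 5.60 and correlated with each other at 0.976 to 0.998 over the probe sets, and no pair was identical. Their number limits the precision. Lgals3, the gene of galectin-3, was at 9.97 ± 0.37 with Tm1N3 and 9.61 ± 0.34 with Tm1G3 in wild-type hosts, and at 9.86 ± 0.62 and 9.31 ± 0.43 in knockout hosts (mean ± SD, n = 3). It did not set the labelled lines or hosts apart (two-sided exact permutation p from 0.3 to 0.8, with 0.1 the smallest that 3 arrays against 3 allow), and its probe set may also read related transcripts or lie outside the deleted part, so it does not check the labels. Of the marker lists, 7 of 9 dendritic cell, 4 of 11 macrophage, 4 of 8 fibroblast, 3 of 8 endothelial, 2 of 17 T and NK cell, 2 of 10 neutrophil, 1 of 7 B cell, 1 of 8 melanocyte, 1 of 6 keratinocyte and 0 of 6 mast cell genes were on the array. Of the melanocyte genes only Mcam was read, at 9.54 to 10.8, and vessels carry it too, so the tumour cells could not be checked by pigment genes. Mcam was higher in Tm1N3 than in Tm1G3 tumours by 0.66 averaged over hosts (adjusted p under 0.05, limma). Within hosts the difference was 0.75 in wild-type and 0.57 in knockout hosts, and neither reached that threshold. Its bearing on the line differences of the receptors was not tested. These are whole tumours, so fewer cells of a type and less RNA per cell cannot be told apart.

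Most of the receptors gave signals below the array's median. In mean level 20 of the 49 lay in the lowest 25% of the 1246 probe sets (under 4.22) and 12 lay above their median of 5.56. No detection calls were used, so it is not known which low signals are above background. The highest mean signals were those of Il10rb at 10.28, Il11ra2 at 9.18, Il2rg at 8.74, Cxcr3 at 7.56, Il17ra at 7.04 and Cxcr4 at 6.84; these are different probes, so the order is one of signal and not of transcript. Over the 12 arrays 28 receptors spanned less than 0.5 and 7 more than 1, and the median SD was 0.114 for the receptors and 0.129 for all probe sets. Il1rl1 had the widest spread (SD 0.71), and Cxcr4 (0.34) and Ccr1 (0.33) were also among the 4 widest.

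**Figure D1:**
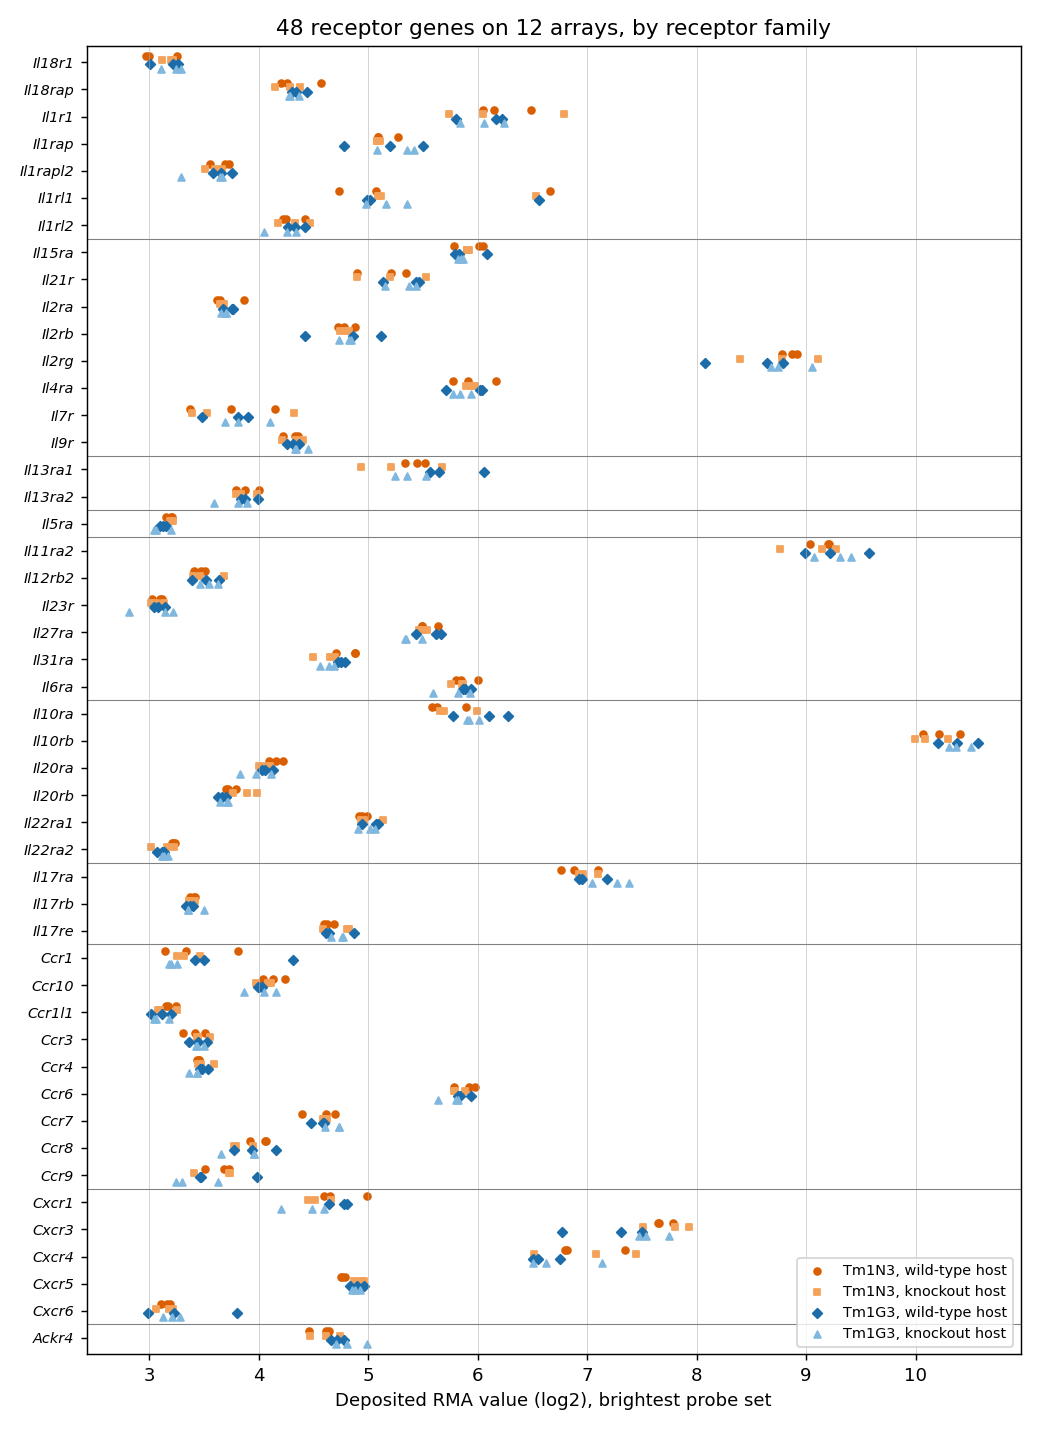
Log2 level of 48 receptor genes, grouped by receptor family, with 1 point per array for the 12 arrays and colours and markers for the 4 groups. Most genes lie low and within a narrow span, while Il1rl1, Cxcr4 and Ccr1 have the largest SD over the 12 arrays of those plotted.

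The line comparison asked whether receptor transcripts differ between tumours of the line labelled as expressing galectin-3 and the line labelled as silenced. No receptor passed an adjusted p of 0.05 (limma, Benjamini-Hochberg over the 1246 probe sets) in wild-type hosts, in knockout hosts or averaged over hosts. Of the 8 further probe sets none passed either, and 4 had the same sign as the brightest one averaged over hosts. Over all probe sets 0.883%, 0.722% and 4.25% passed in these comparisons, in the same order. At an unadjusted p under 0.05 there were 3, 3 and 5 receptors (6.12%, 6.12% and 10.2%), beside 13.1%, 9.47% and 16.4% of all probe sets. Averaged over hosts the smallest adjusted p was 0.171 (limma). The averaged difference (Tm1N3 minus Tm1G3) was negative for 24 of 49 receptors (49.0%, beside 49.0% of all probe sets). Its median was 0.01 for the receptors and 0.00 for all probe sets. The 95% interval of the averaged line difference stayed within ±0.5 for 44 of 49 receptors, and Il1rl1, Cxcr3, Cxcr4 and Il1r1 were among the others. The 3 arrays of one line lay wholly above or below those of the other for 10 receptors in wild-type hosts (20.4%, beside 16.9% of all probe sets) and for 4 in knockout hosts (8.16%, beside 13.7%); of all 6 arrays of a line against the 6 of the other this held for no receptor, beside 3.29% of probe sets.

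The host comparison asked the same of tumours in mice with and without galectin-3. No receptor and no probe set on the array (0.0%) passed in Tm1N3 tumours, in Tm1G3 tumours or averaged over lines. At an unadjusted p under 0.05 there were 2, 4 and 2 receptors (4.08%, 8.16% and 4.08%), beside 4.33%, 6.18% and 6.26% of all probe sets. The smallest adjusted p of a receptor in the averaged host comparison was 0.680 (limma). The averaged host difference (knockout minus wild-type) was negative for 31 of 49 receptors (63.3%, beside 53.6% of all probe sets). Its median was -0.03 for the receptors and -0.01 for all probe sets. The 95% interval of this difference stayed within ±0.5 for 45 of the 49, with Ccr1, Il13ra1 and Il1rl1 among the others. Host groups did not overlap for 2 receptors in Tm1N3 tumours (4.08%, beside 7.62% of probe sets) and for 7 in Tm1G3 tumours (14.3%, beside 12.4%). Over all 12 arrays they did not overlap for 1 receptor (2.04%, beside 0.562%). That gene was Il31ra. No interaction of line and host passed in any receptor (smallest adjusted p = 0.996, limma; none at an unadjusted p under 0.05, beside 2.81% of probe sets, of which 0.0% passed after adjustment); 34 of the 49 interaction intervals stayed within ±0.5 and 45 within ±1.

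**Figure D2:**
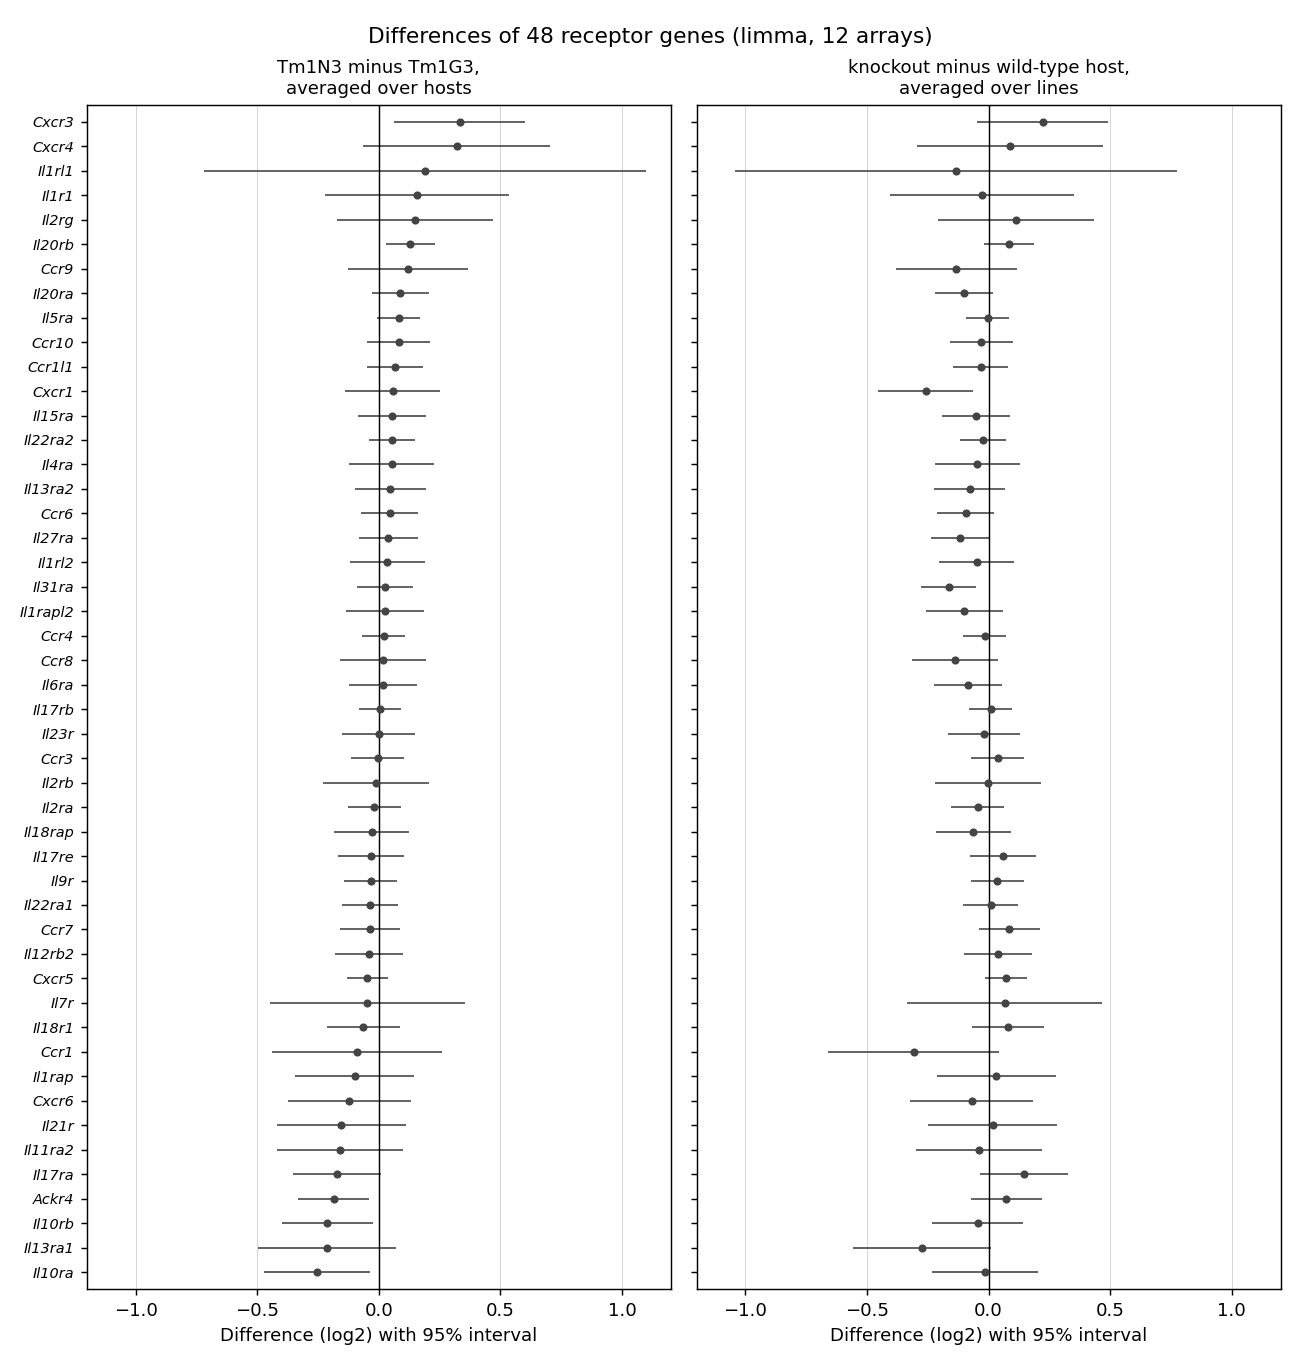
Log2 difference of each of 48 receptor genes with its 95% interval, for the line comparison averaged over hosts (Tm1N3 minus Tm1G3) and the host comparison averaged over lines (knockout minus wild-type). The points lie near 0, and Il1rl1 has the widest intervals.

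The interleukin-1 and interleukin-18 family gave the widest spread of all receptors, in Il1rl1, and none of its 7 members on the array passed in any comparison. Il1rl1 encodes ST2, the receptor of the alarmin interleukin-33; the gene is known to have more than 1 start site, for a membrane form and a soluble decoy form. It is carried by mast cells, type 2 lymphocytes, regulatory T cells and activated stromal cells. Its RefSeq promoter windows on GRCm38.p6, shown because the gene varied most and has separate starts, are on the plus strand at chr1:40429320-40429619 (start 1) and chr1:40439379-40439678 (start 2), each 250 bases before to 50 after the start. Capitals mark GATAA, a core that GATA factors bind, and GAGGAA, a core that PU.1 of myeloid cells binds, on either strand (TTATC and TTCCTC on the other).
Il1rl1 start 1: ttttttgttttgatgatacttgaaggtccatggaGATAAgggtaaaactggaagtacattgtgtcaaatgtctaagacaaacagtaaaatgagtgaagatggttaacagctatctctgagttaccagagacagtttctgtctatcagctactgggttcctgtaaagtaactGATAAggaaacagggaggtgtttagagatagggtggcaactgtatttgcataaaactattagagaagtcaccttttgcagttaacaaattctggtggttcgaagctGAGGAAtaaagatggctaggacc
Il1rl1 start 2: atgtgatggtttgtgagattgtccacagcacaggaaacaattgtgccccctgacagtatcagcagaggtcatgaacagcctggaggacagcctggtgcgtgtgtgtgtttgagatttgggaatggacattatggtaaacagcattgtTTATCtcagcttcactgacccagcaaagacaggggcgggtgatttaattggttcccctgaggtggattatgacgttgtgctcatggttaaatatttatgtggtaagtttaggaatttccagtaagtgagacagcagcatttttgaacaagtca
Start 1 held 2 GATAA and 1 GAGGAA, and start 2 held 1 GATAA. Of 32851 mouse promoter windows of this length 25.4% held GATAA, 28.3% GAGGAA and 7.81% TGANTCA, a core of AP-1. Of the 45 windows of 39 receptors with an entry, 17 held GATAA (37.8%), 15 GAGGAA (33.3%) and 9 TGANTCA (20%). The motifs do not overlap one another in the windows shown, and a match is only a stretch of letters. The sources used here do not say which of the gene's 2 probe sets reads which form.

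In Tm1N3 tumours Il1rl1 read 4.73, 5.07 and 6.66 in wild-type and 5.11, 5.08 and 6.53 in knockout hosts, each trio in the order of replicate number. In Tm1G3 tumours it read 4.98, 5.02 and 6.56 in wild-type and 4.98, 5.16 and 5.35 in knockout hosts. The arrays numbered 3 were the highest of their group in all 4 groups: at 6.66, 6.53 and 6.56 in 3 of them and 5.35 in the fourth, with the other 8 arrays between 4.73 and 5.16. Replicate number took 77.5% of the variance of the 12 values, line 1.95% and host 0.955%. Replicate number has more levels than line or host, which by itself tends to make its share larger. The line difference averaged over hosts was 0.19 ± 0.41 (SE; 95% interval -0.72 to 1.10; adjusted p = 0.897, limma) and the host difference -0.13 ± 0.41 (adjusted p = 0.947, limma). Without the arrays numbered 3, an alternative chosen after the values had been seen, both turned in sign, to -0.04 ± 0.09 for line and 0.14 ± 0.09 for host, on 8 arrays. The widest spread of any receptor lay along the replicate number and not along line or host.

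The other probe set of Il1rl1 was also highest on the array numbered 3 of every group. On the arrays numbered 3 it read 4.36 and 4.25 in Tm1N3 tumours and 4.02 and 3.86 in Tm1G3 tumours (wild-type, then knockout host), and on the other arrays 3.74 to 3.86. Il33, which encodes its ligand, read 7.32 and 7.96 with Tm1N3 and 7.65 and 6.74 with Tm1G3 on those 4 arrays, beside 5.86 to 6.93 on the others. It was above all of those on 3 of the 4 arrays, and the fourth lay within their range. The mean of 4 fibroblast markers (Dcn, Lum, Pdgfra and Fbln5) was highest on the same 3 arrays that were highest for Il1rl1, at 7.67, 7.66 and 7.12, beside 6.02 to 6.96 elsewhere. Of the 4, only Pdgfra was highest on those 3 arrays by itself. Dcn and Lum read 9.65 and 7.04 on the first Tm1G3 array of knockout hosts. On the third Tm1G3 array of wild-type hosts they read 9.59 and 6.83. Fbln5 went the other way. Its values on the arrays numbered 3 of Tm1N3 in knockout hosts (5.23) and Tm1G3 in wild-type hosts (4.93) were each the lowest of their group. The mean of 4 macrophage markers was 8.16, 8.71 and 8.36 on those 3 arrays, and 8.33 and 8.32 on the arrays numbered 1 of Tm1G3 tumours, where Il1rl1 was 4.98 on both. No mast cell marker was on the array. The part of these cells in the Il1rl1 signal was not tested.

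**Figure D3:**
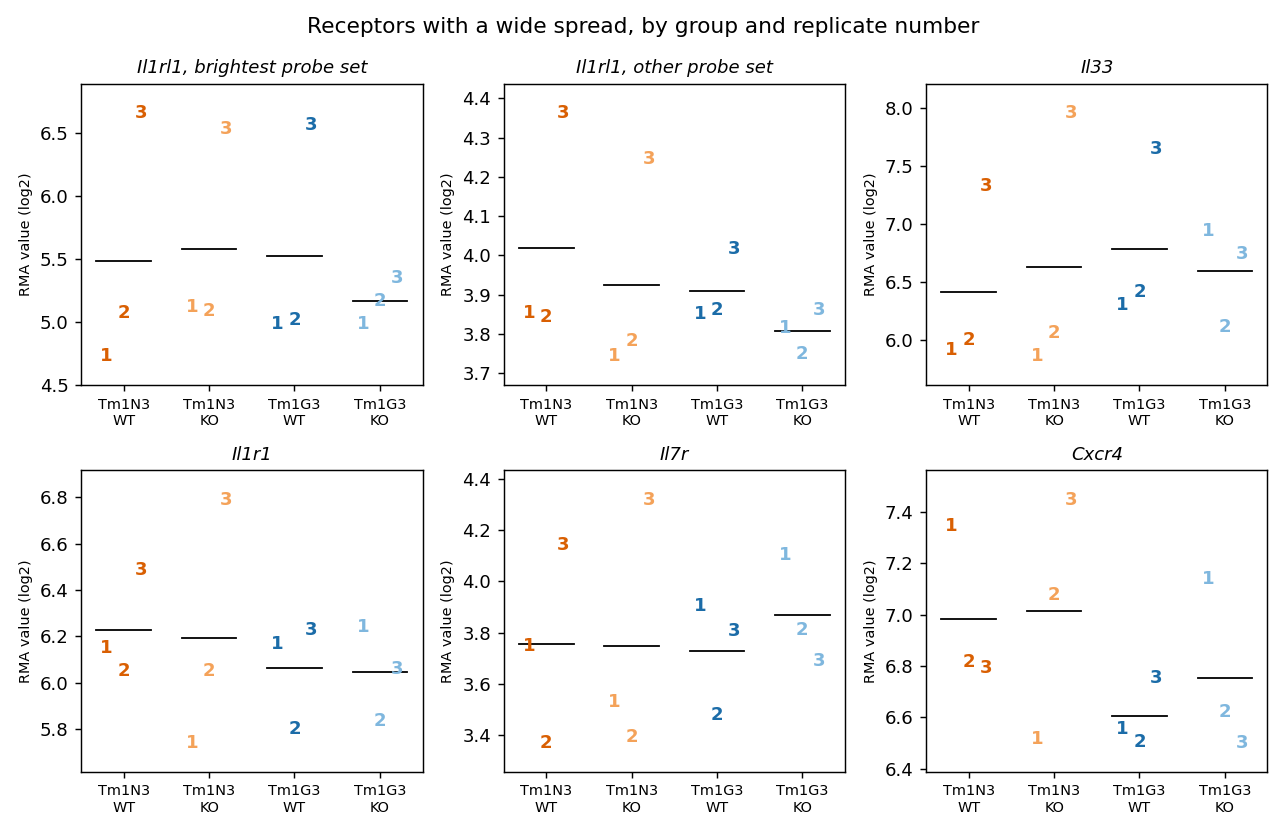
Log2 level on each of the 12 arrays of both Il1rl1 probe sets, its ligand gene Il33, and the receptors Il1r1, Il7r and Cxcr4, by group, with the digit giving the replicate number. For Il1rl1 the digit 3 is the highest of every group.

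Il1r1, the signalling receptor of interleukin-1, read 6.15, 6.05 and 6.49 in wild-type and 5.74, 6.05 and 6.79 in knockout hosts with Tm1N3. Tumours of Tm1G3 gave 6.17, 5.80 and 6.23 in wild-type and 6.24, 5.84 and 6.06 in knockout hosts. Its highest values, 6.79 and 6.49, were again on arrays numbered 3 of Tm1N3 tumours, and replicate number took 46.1% of its variance. That share was not particular to Il1r1, since Il7r (45.7%), Il23r (45.2%) and Il13ra2 (44%) had similar ones. Il1rap, the shared second chain of the interleukin-1 family, lay between 4.78 and 5.50, with an averaged line difference of -0.10 ± 0.11. Il18r1 and Il18rap, both chains of the interleukin-18 receptor, lay at 2.97 to 3.29 and 4.15 to 4.57, with line differences of -0.06 ± 0.07 and -0.03 ± 0.07. Their ligand gene Il18 was lower in Tm1N3 tumours (-1.20 ± 0.08, adjusted p = 2.20e-05, limma). Neither receptor chain passed beside it (adjusted p = 0.756 and 0.911, limma). Il1rl2, a receptor of interleukin-36, and Il1rapl2, a neural relative, stayed within 4.05 to 4.47 and 3.29 to 3.76.

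All 8 receptors of the common gamma chain group were on the array, and none passed in any comparison. Il2rg, the shared chain itself, read 8.87, 8.78 and 8.92 in wild-type and 8.40, 8.78 and 9.11 in knockout hosts in Tm1N3 tumours. In Tm1G3 tumours the values were 8.79, 8.08 and 8.64 in wild-type and 9.05, 8.68 and 8.74 in knockout hosts. Its lowest value was on the array numbered 2 of Tm1G3 tumours in wild-type hosts, and the groups overlapped. The line difference was 0.36 ± 0.20 in wild-type and -0.06 ± 0.20 in knockout hosts, with an interaction of -0.42 ± 0.29 (adjusted p = 0.996, limma). Without that low array the difference in wild-type hosts was 0.14 and the interaction -0.21. Il7r, the interleukin-7 receptor of lymphocytes, had the widest range of the others, from 3.37 to 4.32. Its highest value was again on an array numbered 3, that of Tm1N3 tumours in knockout hosts. Il21r lay between 4.90 and 5.53, Il2rb between 4.42 and 5.11, and Il4ra, the shared receptor of interleukins 4 and 13, between 5.71 and 6.17. Il15ra, Il9r and Il2ra each spanned less than 0.5.

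Il13ra1 pairs with Il4ra in the receptor that stromal and myeloid cells use for interleukins 4 and 13, and its averaged host difference was negative without passing. It read 5.34, 5.52 and 5.45 in wild-type and 4.93, 5.20 and 5.67 in knockout hosts with Tm1N3. The Tm1G3 tumours read 6.06, 5.65 and 5.57 in wild-type and 5.53, 5.25 and 5.35 in knockout hosts. In Tm1G3 tumours every wild-type array lay above every knockout array, by a narrow gap, while in Tm1N3 tumours the host groups overlapped. The averaged host difference was -0.27 ± 0.13 (95% interval -0.56 to 0.01; adjusted p = 0.749, limma). Leaving out the array numbered 3 of every group gave -0.41 ± 0.13 (adjusted p = 0.806, limma), more than 1.5 times the difference. Il13ra2, the decoy receptor of interleukin-13, had its lowest value at 3.59 and spanned 0.41. Il5ra, the only measured member that pairs with the common beta chain, spanned 3.04 to 3.22, with a line difference of 0.08 ± 0.04 (adjusted p = 0.349, limma).

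In the gp130 and interleukin-12 group, Il31ra and Il27ra had small negative host differences, and none of the 6 members passed. Il31ra, a receptor chain for the itch cytokine interleukin-31, read 4.71, 4.88 and 4.88 in wild-type and 4.69, 4.50 and 4.65 in knockout hosts with Tm1N3. With Tm1G3 it read 4.79, 4.75 and 4.72 in wild-type and 4.56, 4.69 and 4.64 in knockout hosts. Each of the 6 knockout-host values lay below each of the 6 wild-type values, by a narrow gap between 4.693 and 4.706. The averaged difference was -0.16 ± 0.05 (95% interval -0.28 to -0.05, adjusted p = 0.68, limma). Its p was the smallest of any receptor in the averaged host comparison. Its mean level of 4.70 lay below the array's median of 5.56. Il27ra, which binds interleukin-27 together with gp130, read 5.49, 5.49 and 5.64 in wild-type and 5.53, 5.46 and 5.49 in knockout hosts with Tm1N3. With Tm1G3 the values were 5.62, 5.44 and 5.66 in wild-type and 5.34, 5.33 and 5.49 in knockout hosts. Its host difference was -0.19 ± 0.08 in Tm1G3 tumours (adjusted p = 0.752, limma) and -0.05 ± 0.08 in Tm1N3 tumours.

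Il11ra2, a close copy of the interleukin-11 receptor, gave one of the highest signals of the receptors, with 9.20, 9.03 and 9.20 in wild-type and 8.76, 9.27 and 9.14 in knockout hosts in Tm1N3 tumours. Tumours of Tm1G3 gave 9.57, 8.99 and 9.22 in wild-type and 9.41, 9.31 and 9.07 in knockout hosts. The probe set may also read the near-identical Il11ra1, so the source of its signal is uncertain. The groups overlapped, with a line difference of -0.16 ± 0.12 (adjusted p = 0.602, limma). Without the first Tm1G3 array of wild-type hosts it was -0.08, and within those hosts it turned from -0.12 to 0.04. Il6ra, the private chain of the interleukin-6 receptor, stayed between 5.59 and 6.01. Il12rb2 and Il23r, carried by T and NK cells, lay at 3.39 to 3.68 and 2.82 to 3.22.

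The class II family, which holds the receptors of interleukins 10, 20 and 22, had 6 members on the array, and none passed in any comparison. Il10ra, the ligand-binding chain of the interleukin-10 receptor on leukocytes, read 5.63, 5.59 and 5.90 in wild-type and 5.65, 5.69 and 5.997 in knockout hosts with Tm1N3. With Tm1G3 the values were 6.28, 5.77 and 6.10 in wild-type and 6.01, 5.92 and 5.90 in knockout hosts. The lines overlapped, since the Tm1N3 arrays numbered 3 reached 5.90 and 5.997. The averaged line difference was -0.25 ± 0.10 (95% interval -0.47 to -0.04; adjusted p = 0.214, limma). In wild-type hosts alone it was -0.35 ± 0.14 (adjusted p = 0.307, limma), and without the first Tm1G3 array in these hosts, the highest of all for Il10ra, it was -0.23. The 4 macrophage markers on the array (Adgre1, Csf1r, Mrc1 and Cd74) also had negative line differences, with a median of -0.37 averaged and -0.49 in wild-type hosts, none past the test. Their mean lay at 7.11 to 8.16 with Tm1N3 and 7.29 to 8.36 with Tm1G3 in wild-type hosts, and at 6.86 to 8.71 and 7.64 to 8.32 in knockout hosts. Their part in the Il10ra values was not tested.

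Il10rb, the second chain that receptors for interleukins 10 and 22 share, had the highest mean signal of the 49. It read 10.22, 10.41 and 10.07 in wild-type and 10.09, 10.30 and 9.999 in knockout hosts in Tm1N3 tumours. The Tm1G3 tumours read 10.57, 10.38 and 10.21 in wild-type and 10.31, 10.51 and 10.37 in knockout hosts. The lines overlapped in wild-type hosts and lay apart in knockout hosts by a narrow gap. The averaged line difference was -0.21 ± 0.08 (adjusted p = 0.229, limma). Its probe set is marked as sharing probes with other transcripts.

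Il20rb is a chain of the receptors for interleukins 19, 20 and 24, best known from keratinocytes. It had the smallest line p of any receptor in knockout hosts and averaged over hosts. Its signal was in the lowest 25% of the array. With Tm1N3 the values were 3.72, 3.79 and 3.70 in wild-type and 3.89, 3.99 and 3.76 in knockout hosts. With Tm1G3 they were 3.67, 3.70 and 3.63 in wild-type and 3.72, 3.71 and 3.65 in knockout hosts. In knockout hosts the line groups did not overlap, nor did they in wild-type hosts, where the gap was narrow. The averaged difference was 0.13 ± 0.05 (95% interval 0.03 to 0.23; adjusted p = 0.171, limma), which moved to an adjusted p of 0.0756 without the array numbered 3 of Tm1N3 tumours in knockout hosts. Over the 12 arrays the genes most like Il20rb in pattern were Fzd3 (Pearson r 0.87), Lgals7 (0.84) and Pomt2 (0.82), as a description over arrays that share their normalization. Lgals7, a galectin of keratinocytes and the only keratinocyte marker on the array, was at 7.53 to 8.54 with Tm1N3 and 7.04 to 7.52 with Tm1G3, and its part in the Il20rb values was not tested. Il22ra2, the soluble decoy of interleukin-22, read 3.21, 3.23 and 3.21 in wild-type and 3.22, 3.16 and 3.02 in knockout hosts with Tm1N3. With Tm1G3 it read 3.07, 3.13 and 3.11 in wild-type and 3.12, 3.13 and 3.17 in knockout hosts. Its line difference was 0.11 ± 0.06 in wild-type hosts, without overlap, and -0.01 ± 0.06 in knockout hosts. Il20ra, the partner of Il20rb, lay between 3.83 and 4.22, and Il22ra1, the signalling receptor of interleukin-22, between 4.91 and 5.13.

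Il17ra, the shared chain of the interleukin-17 receptors, gave no call either. It read 6.88, 7.10 and 6.76 in wild-type and 6.96, 7.10 and 6.93 in knockout hosts with Tm1N3. With Tm1G3 the values were 7.18, 6.95 and 6.93 in wild-type and 7.38, 7.27 and 7.04 in knockout hosts. The line difference averaged -0.17 ± 0.08 (adjusted p = 0.337, limma). Il17rb, the receptor that takes interleukins 17B and 25, was the flattest of the 49, from 3.34 to 3.50. Its ligand Il17b was higher in Tm1N3 tumours (0.68 ± 0.12, adjusted p = 0.0101, limma), and the line difference of Il17rb was 0.01 ± 0.04. Il17re, a receptor of interleukin-17C, stayed within 4.59 to 4.87.

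Of the 10 CC chemokine receptors none passed. Ccr1, a receptor of neutrophils and monocytes for Ccl3 and related chemokines, read 3.14, 3.34 and 3.81 in wild-type and 3.31, 3.25 and 3.47 in knockout hosts with Tm1N3. The Tm1G3 tumours read 4.31, 3.42 and 3.50 in wild-type and 3.19, 3.25 and 3.18 in knockout hosts. In Tm1G3 tumours the 3 knockout-host values lay below the 3 wild-type values, with a difference of -0.53 ± 0.22 (adjusted p = 0.764, limma). Without the first wild-type array, at 4.31, it was -0.25. That array also had the highest value of the neutrophil marker Csf3r, at 6.97 beside 5.27 to 5.76 on the other 11. It held the highest value of 9 receptors, and the first knockout-host array of Tm1G3 held the lowest value of 10. These counts were not set beside all probe sets. The macrophage marker Adgre1 was also highest on the first wild-type array of Tm1G3, at 7.98 beside 5.07 to 6.90 on the other 11. The mean of the 4 macrophage markers was 8.33 on it and did not peak there, since the highest was 8.71. The part of these cells in the Ccr1 signal was not tested. Ccr4, carried by type 2 and regulatory T cells, spanned 3.36 to 3.59, with 3.45, 3.45 and 3.43 in wild-type and 3.59, 3.44 and 3.47 in knockout hosts for Tm1N3. With Tm1G3 it read 3.54, 3.46 and 3.48 in wild-type and 3.43, 3.36 and 3.43 in knockout hosts. It is named for its interaction of 0.14 ± 0.08 (adjusted p = 0.996, limma). The lymphocyte receptors Ccr6 and Ccr7 and the eosinophil receptor Ccr3 spanned 5.64 to 5.98, 4.39 to 4.73 and 3.31 to 3.55. Ccr8, of regulatory and type 2 T cells, lay between 3.65 and 4.15, Ccr9, of gut-homing T cells, between 3.24 and 3.98, Ccr10, of skin-homing T cells, between 3.86 and 4.24, and the Ccr1 relative Ccr1l1 between 3.01 and 3.25.

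Among the 5 CXC receptors Cxcr3 had the largest averaged line difference of all 49, and it did not pass. Cxcr3 guides activated T and NK cells towards Cxcl9 and Cxcl10. Its promoter window, shown because it had this difference, is on the minus strand at chrX:101734098-101734397 (RefSeq, GRCm38.p6) and held 1 GAGGAA, in capitals, on the other strand.
Cxcr3: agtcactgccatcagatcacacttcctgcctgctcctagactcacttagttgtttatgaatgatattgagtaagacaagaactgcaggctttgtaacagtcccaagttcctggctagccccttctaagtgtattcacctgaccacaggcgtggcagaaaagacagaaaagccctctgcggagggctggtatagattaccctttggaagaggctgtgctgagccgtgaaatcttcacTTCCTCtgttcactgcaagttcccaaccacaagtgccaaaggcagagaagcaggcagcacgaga
In Tm1N3 tumours Cxcr3 read 7.65, 7.79 and 7.65 in wild-type and 7.93, 7.80 and 7.51 in knockout hosts. In Tm1G3 tumours it read 6.77, 7.50 and 7.31 in wild-type and 7.48, 7.74 and 7.54 in knockout hosts. In wild-type hosts every Tm1N3 array was above every Tm1G3 array, and in knockout hosts the lines overlapped. The line difference was 0.50 ± 0.17 in wild-type hosts (adjusted p = 0.202, limma), 0.16 ± 0.17 in knockout hosts and 0.33 ± 0.12 averaged (95% interval 0.06 to 0.60; adjusted p = 0.181); the difference between hosts in this effect was not past the test (interaction -0.34 ± 0.24, adjusted p = 0.996). The lowest value, 6.77, was that of the first Tm1G3 array in wild-type hosts. Without it the difference was 0.29 in wild-type hosts and 0.23 averaged, and without the second array of that group 0.66 and 0.41. Cd2 and Klrd1, the 2 of 17 T and NK cell markers on the array, had a mean of 4.35 to 4.61 in Tm1N3 tumours and 4.47 to 4.89 in Tm1G3 tumours of wild-type hosts; their part in the Cxcr3 values was not tested. The ligand genes Cxcl9 and Cxcl10 did not pass, with line differences of -0.60 ± 0.46 and 0.18 ± 0.20 in wild-type hosts and -0.49 ± 0.32 and -0.04 ± 0.14 averaged. For Cxcl9 the third Tm1G3 array of wild-type hosts read 6.16, and the other 11 arrays 3.94 to 5.08.

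Cxcr4, the receptor of Cxcl12 on leukocytes, vessels and tumour cells, read 7.34, 6.82 and 6.79 in wild-type and 6.51, 7.08 and 7.45 in knockout hosts with Tm1N3. With Tm1G3 it read 6.55, 6.50 and 6.75 in wild-type and 7.14, 6.62 and 6.50 in knockout hosts. The lines overlapped in knockout hosts and lay apart in wild-type hosts by a narrow gap. The averaged line difference was 0.32 ± 0.17 (95% interval -0.06 to 0.70, adjusted p = 0.423, limma). That of Cxcl12 was -0.48 ± 0.22 and did not pass either (adjusted p = 0.318, limma). For Cxcl12 it was -0.14 ± 0.31 in wild-type and -0.81 ± 0.31 in knockout hosts. Leaving out single arrays moved the Cxcr4 value between 0.21, without the third Tm1N3 array of knockout hosts, and 0.44. Cxcr5, which brings B cells to follicles, read 4.76, 4.75 and 4.78 in wild-type and 4.93, 4.96 and 4.87 in knockout hosts with Tm1N3. With Tm1G3 the values were 4.83, 4.96 and 4.90 in wild-type and 4.92, 4.88 and 4.85 in knockout hosts. The 3 Tm1N3 arrays of wild-type hosts were the lowest of the 12. It had a host difference in Tm1N3 tumours of 0.16 ± 0.05 (adjusted p = 1, limma) and the smallest interaction p of the receptors (0.17 ± 0.08, adjusted p = 0.996).

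Cxcr1, a receptor of neutrophil-attracting chemokines, was among the receptors with the lowest p between hosts. It read 4.65, 4.59 and 4.99 in wild-type and 4.66, 4.51 and 4.45 in knockout hosts with Tm1N3. Tumours of Tm1G3 gave 4.77, 4.65 and 4.80 in wild-type and 4.20, 4.49 and 4.60 in knockout hosts. In Tm1G3 tumours the host groups did not overlap, and in Tm1N3 tumours the highest knockout-host value, 4.66, lay inside the wild-type range. The averaged host difference was -0.26 ± 0.09 (95% interval -0.45 to -0.06; adjusted p = 0.749, limma). Cxcr6 stayed between 2.99 and 3.28 apart from 1 array at 3.80, the third of Tm1G3 tumours in wild-type hosts. Ackr4, which removes Ccl19, Ccl21 and Ccl25, was the only atypical receptor measured. Its line p was the second smallest in knockout hosts and averaged over hosts. It read 4.46, 4.62 and 4.64 in wild-type and 4.74, 4.61 and 4.46 in knockout hosts with Tm1N3. The Tm1G3 tumours read 4.65, 4.72 and 4.78 in wild-type and 4.70, 4.99 and 4.80 in knockout hosts. The lines overlapped in knockout hosts and lay apart in wild-type hosts by a narrow gap. The averaged difference was -0.19 ± 0.07 (95% interval -0.33 to -0.04; adjusted p = 0.171, limma).

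**Figure D4:**
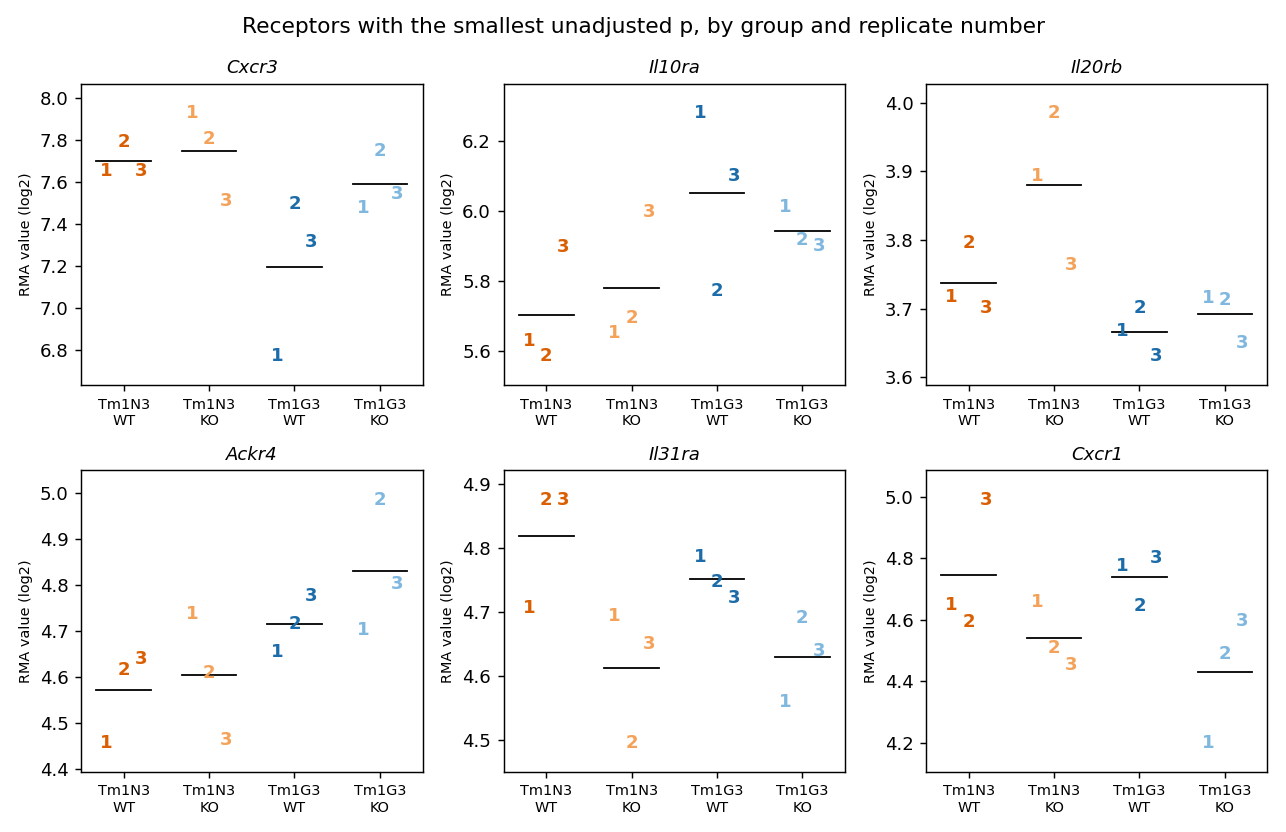
Log2 level of Cxcr3, Il10ra, Il20rb, Ackr4, Il31ra and Cxcr1 on each of the 12 arrays by group, with the digit giving the replicate number and the bar the mean of 3 arrays. The 6 arrays of wild-type hosts lie above the 6 of knockout hosts for Il31ra by a narrow gap. For Il10ra the compared groups overlap throughout.

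The ligands and partner chains of these receptors were listed by role and not by how they moved. In the line comparison averaged over hosts 4.25% of all probe sets passed. There, 1 of 23 chemokine ligands was lower in Tm1N3 tumours and none higher: Ccl5 (-0.65 ± 0.12, adjusted p = 0.0113, limma). Its receptors Ccr1 and Ccr3 had line differences of -0.09 ± 0.16 and 0.00 ± 0.05, neither past the test. Of 26 interleukin ligands Il17b was higher and Il18 lower, and 24 did not pass. Of 11 other receptor chains of cytokines, 1 was lower, the interferon gamma receptor chain Ifngr2 (-0.33 ± 0.06, adjusted p = 0.00771, limma), and 10 did not pass. Between hosts no gene of these lists passed, like the 0.0% of the whole array.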

How the data were processed

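RNA of 12 tumour samples was extracted with Trizol, turned into biotin-labelled cRNA and hybridised to Affymetrix arrays, per the labels' protocols. The values are log2 levels made with RMA (background correction, quantile normalization and probe summary), per the submitters' processing notes, and were used as deposited. RMA already equalises the arrays' distributions, and no scanner files or detection calls were used here, so signal over background is unknown. Probe sets were named by RefSeq accession through a mouse gene table (GRCm38.p6), and promoter windows come from RefSeq on the same build; the array's own build is not stated.

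Arrays were grouped by the line and host in their titles. With limma 3.58.1 in R 4.3.3, the means of the 4 groups were estimated over the whole table without a filter (8 residual and 2.39 prior degrees of freedom). Line differences are Tm1N3 minus Tm1G3 and host differences knockout minus wild-type, each within the other factor and averaged; the interaction is the difference between them. Benjamini-Hochberg adjustment covered the 1246 probe sets of each comparison, with a threshold of 0.05. The fit was also run on simulated data with added changes, and the share of those changes that it called is not given here. Errors of differences are moderated SE, and Lgals3 had an exact permutation test.

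The members, gene lists and tests were chosen with earlier results of these data known. Values in all arrays are given for the 4 receptors with the smallest unadjusted p in each of 7 comparisons, the 6 with the highest mean level and the 4 with the largest SD, 19 genes in all, of which 1 is not reported here; other receptors are given by range. Il1r1 is given array by array beside Il1rl1, and was chosen after its values were seen. Same-numbered arrays of a line in both hosts deviated together (r of 0.18 to 0.75 with Tm1N3 and 0.25 to 0.31 with Tm1G3, over probe sets), and those of both lines in a host did not do so throughout (from -0.66 to 0.54). The pairing of hosts within a line comes from these correlations, not from the labels. Alternatives changed the normalization, filter, spread, probe set, block and arrays.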

Additional observations from a re-analysis of the deposited data

How the results depend on the processing

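No receptor passed in any of the 7 comparisons under any alternative. Each comparison had 19 to 21 alternatives, which made 143 refits of a comparison. The alternatives were quantile normalization again, centring each array on its median, and leaving out the lowest 25% of probe sets by mean level. Others were limma with trend and robust settings, the mean of a gene's probe sets and only the compared groups. The rest used replicate number as a block, or left out each array in turn or all arrays numbered 3. Among the 143 refits the smallest adjusted p was 0.0756 (limma). It was that of Il20rb between lines without the array numbered 3 of Tm1N3 tumours in knockout hosts. The fixed replicate block joined same-numbered arrays of a line in both hosts for the host comparisons. For the line comparisons it joined same-numbered arrays of both lines in a host, whose deviations did not go together throughout. The random block joined same-numbered arrays within a line (correlation 0.273). With either block the count was 0 in each comparison fitted, so the block changed no call. The interaction had no fixed block. The random block and the fit without the arrays numbered 3 were chosen after seeing the data. The medians of the receptors stayed within 0.0706 (the SD of the receptor median between arrays) of their values in all 143 refits. They lie near 0 and change sign among the refits. Averaged line differences ranged over their alternatives from 0.10 to 0.16 for Il20rb, 0.23 to 0.42 for Cxcr3, -0.35 to -0.20 for Il10ra and -0.22 to -0.15 for Ackr4. Averaged host differences ranged from -0.19 to -0.12 for Il31ra, -0.30 to -0.20 for Cxcr1, -0.41 to -0.19 for Il13ra1 and -0.15 to -0.09 for Il27ra. Il20rb lies in the lowest 25% and has no value under that filter. Signal over background is unknown, and 20 of 49 receptors lie in the lowest 25% of mean level.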
